A study of Gorilla gorilla gorilla with 14 samples.

Results

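Neurons (N, 4 libraries) were set against basal intermediate progenitor cells (bIP, 5 libraries), which are 9 of the 14 bulk ATAC-seq libraries of sorted gorilla cerebral organoid cells. The libraries were chosen by their labels. All came from 1 gorilla induced pluripotent stem cell line, GC1, kept in StemFlex medium and grown into organoids to week 8, and the labels give no treatment and no engineered allele. The labels call the N cells BCL11B+ neurons, and the remaining 5 libraries are 2 of basal radial glia (bRG) and 3 of apical radial glia (aRG). Replicates are written N1 to N4 and bIP1 to bIP5. The library numbers in the labels form 2 consecutive runs, named the first series (N1, N2 and bIP1 to bIP3) and the second series (N3, N4, bIP4 and bIP5). Of the radial glia libraries aRG1 and aRG2 belong to the first series, and aRG3, bRG1 and bRG2 to the second. All bRG levels therefore come from the second series alone. A single line limits the groups as models, since no difference between donors can be seen, and the labels do not say whether replicates were separate cultures, so that p-values measure only how these libraries vary.

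In the developing neocortex, radial glia divide to give basal intermediate progenitors, which express the T-box factor EOMES, divide once or a few times and produce excitatory neurons. A cell that leaves the cycle and matures closes the promoters and enhancers of progenitor genes, among them SOX2, PAX6 and the Notch targets of the HES family, and opens those for axon growth, excitability and synaptic transmission. ATAC-seq reads this out through a transposase that inserts sequencing adapters where DNA is not covered by nucleosomes, so the count over a region measures its accessibility and not the amount of RNA.

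The table held 218080 regions, of which 204249 distinct ones had a gorilla position and were used, with a median width of 858 bp. Library totals ran between 14416471 and 24207798 counts in N and between 12834983 and 26378687 in bIP, so that 3 counts, taken as the floor of detection, were worth between 0.113 and 0.234 CPM (counts scaled to the same library size) over all 14 libraries. Promoter regions, those listed within 1000 bp of their closest gene, took 30.4% to 39.1% of the counts in N and 32.8% to 37.6% in bIP. Pairs of replicates differed by more than sampling noise, with a chi-square over its degrees of freedom between 3.42 and 12.2 in N and between 1.09 (bIP1 and bIP2) and 9.05 in bIP. The first principal component of the 14 libraries (57.8% of the variance) placed N between 0.69 and 1.13 and bIP between -0.06 and 0.09, with every radial glia library below them, and the second (20.5%) set bIP apart from the other groups. Below, N1 to N4 and bIP1 to bIP5 are always given in that order, levels are CPM scaled by TMM factors, and changes are log2 fold changes of N over bIP ± SE from edgeR's quasi-likelihood test. A region was called at a Benjamini-Hochberg adjusted p under 0.05 over all regions tested.

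Most regions tested differed between N and bIP. Of 200931 regions, 57834 were higher in N (28.8%) and 53016 were lower (26.4%). With TMM scaling the changes upward were larger, with a median log2 of 1.49 for the higher and -1.11 for the lower regions. At least 8-fold, 3706 regions were higher in N and 602 were lower. At least 2-fold, 43728 were higher and 31181 lower with TMM, against 37751 and 35311 with loess offsets, a scaling described below. Over all regions tested, every N library lay above every bIP library in 39844 and below every one in 33748. Because these are bulk samples, fewer cells of a type and less accessibility per cell cannot be told apart.

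Promoters and distal regions divided differently. Among 20510 promoter regions, 2932 were higher in N (14.3%) and 4701 were lower (22.9%), whereas among 177609 distal regions, those listed farther than 1000 bp, 54264 were higher (30.6%) and 47494 were lower (26.7%). With TMM scaling the share of higher regions was 14.3% within 1 kb of the closest gene, 27.2% between 1 and 10 kb, 33.1% between 50 and 100 kb and 35.9% beyond 200 kb. With loess offsets it was 40.3% within 1 kb, 27.5% between 1 and 10 kb and 32.1% beyond 200 kb, so that the order of the nearest bin and the others depended on the scaling. The share of lower regions stayed between 22.7% and 28.3% over these distances with TMM, and was 19.2% within 1 kb and 26.9% to 31.1% farther away with loess. Counting changes of at least 2-fold gave 1802 promoters higher and 1694 lower, against 41451 distal regions higher and 29002 lower.

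The balance of higher and lower calls depended on how the libraries were scaled. With TMM the median promoter change was -0.13, and with loess offsets fitted on mean abundance it was 0.14, so that 8272 promoter regions were then higher in N and 3932 were lower. Of the called promoters 38.4% were higher with TMM and 67.8% with loess, while changes of 2-fold or more held their balance, with 1814 higher and 1554 lower under loess. Among distal regions loess gave 51707 higher and 53778 lower, the reverse of the TMM balance, and 35498 higher and 33220 lower at 2-fold or more. By their most accessible promoter region 7935 of 19305 genes rose and 3536 fell with loess. In the first series the median promoter change was 0.12 and in the second -0.38. Of 10099 coding genes 784 rose (7.76%) and 1910 fell (18.9%) with TMM, and 4839 rose and 1259 fell with loess. The loess counts of the gene lists below are read against these counts over all genes and over coding genes. Their TMM counts are read against 13.7% higher and 22.3% lower of all genes by their most accessible promoter region.

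**Figure D1:**
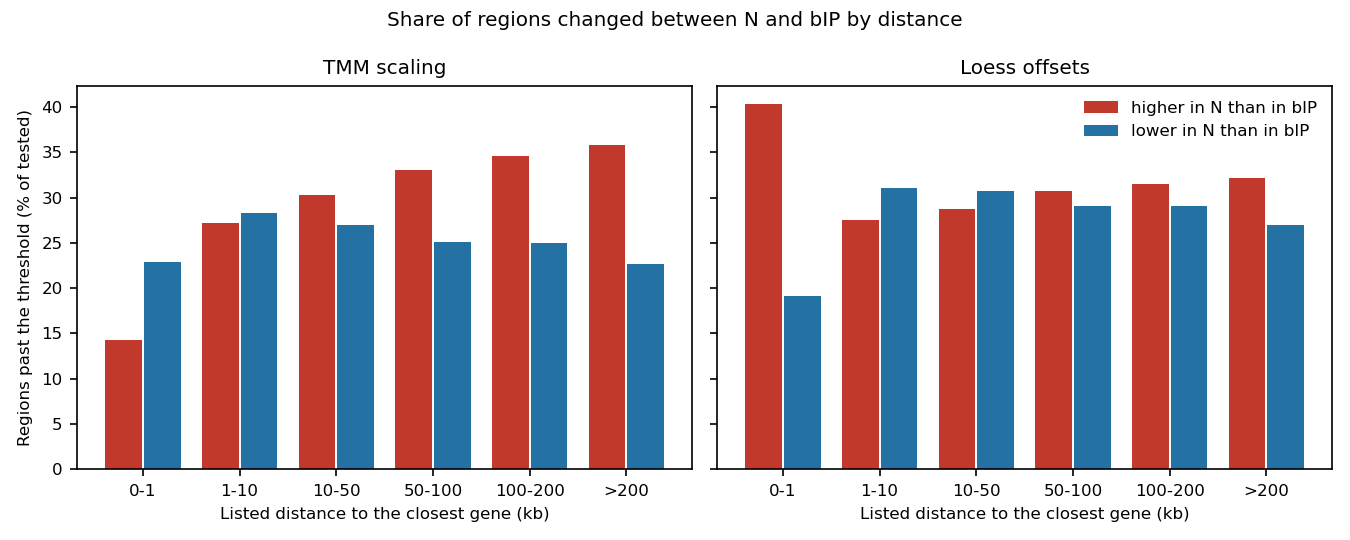
Percentage of regions called higher (N above bIP) and lower by distance to the closest listed gene in kb, with TMM scaling in the left panel and loess offsets in the right. With TMM the higher share is 14.3% within 1 kb and 35.9% beyond 200 kb, and with loess the regions within 1 kb stand at 40.3% higher and 19.2% lower.

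Among the 15 coding genes with the smallest p at a promoter region at least 2-fold higher in N were genes of calcium signalling, peptide transmission and synapse formation. RASGRF1 encodes an exchange factor that couples calcium and calmodulin to Ras. Its promoter (gorGor6, chr15:54442248-54444133) had 23.5, 23.3, 21.4 and 38.1 CPM in N, against 2.46, 1.94, 1.53, 3.14 and 3.28 CPM in bIP. N4 was the highest of the neurons, and the lowest neuron library was several times above the highest bIP library (log2 3.38 ± 0.20, adjusted p = 1.32e-11). The promoter of SLC8A1, a sodium-calcium exchanger of the plasma membrane, lies at chr2A:56738640-56740291 and had 28.2, 22.0, 21.4 and 42.7 CPM in N, against 2.23, 2.27, 2.36, 2.17 and 1.40 CPM in bIP. Again N4 was highest and the groups did not overlap (log2 3.76 ± 0.23, adjusted p = 1.77e-11). PDYN, which encodes the precursor of the opioid peptide dynorphin, had 15.4, 16.1, 12.9 and 22.9 CPM in N and 2.04, 2.01, 2.08, 2.52 and 2.95 CPM in bIP (log2 2.83 ± 0.19, adjusted p = 3.83e-11).

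TENM2, a teneurin that joins pre- and postsynaptic membranes by binding latrophilins, had 11.4, 10.7, 9.99 and 13.7 CPM at its promoter in N, against 1.82, 2.14, 2.08, 1.68 and 1.84 CPM in bIP. The libraries of each group were close together and far from those of the other (log2 2.59 ± 0.18, adjusted p = 5.82e-11). PTPN5, the striatum-enriched tyrosine phosphatase that acts on glutamate receptors, rose by 3.09 ± 0.22 on the log2 scale. RESP18, a protein of the secretory pathway of neuroendocrine cells, rose by 2.72 ± 0.19, and HS3ST2, a heparan sulfate sulfotransferase, by 2.38 ± 0.19. SLC6A17, an amino acid transporter of synaptic vesicles, rose by 2.83 ± 0.22, and INSYN2A, a component of inhibitory synapses, by 1.98 ± 0.17. The 15 also held SLC41A2 (magnesium transport, 3.03 ± 0.21), TMEM271 (3.21 ± 0.25), the homeobox gene NKX1-1 (2.89 ± 0.24) and OTOR (2.94 ± 0.25). All 4 N libraries lay above all 5 bIP libraries at each of these promoters. Their choice by p from the same libraries favours such a separation.

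Some of these gains were at a further promoter region of the gene and not at its most accessible one. THY1, a neuronal surface glycoprotein, rose by 3.10 ± 0.26 at a region listed 686 bp away, with 5.46, 5.50, 3.99 and 8.54 CPM in N and 0.832, 0.647, 0.624, 0.530 and 0.725 CPM in bIP, while its most accessible promoter region had a log2 change of -0.04 ± 0.16 (adjusted p = 0.853). At GABBR2, which encodes the GABA-B receptor subunit that couples to G proteins, both regions moved together. The region listed at the gene itself rose by 3.29 ± 0.25, and the more accessible one 612 bp away had 14, 16, 14.2 and 24.5 CPM in N, against 4.05, 4.01, 2.91, 3.67 and 3.53 CPM in bIP (log2 2.21 ± 0.19, adjusted p = 9.09e-10).

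**Figure D2:**
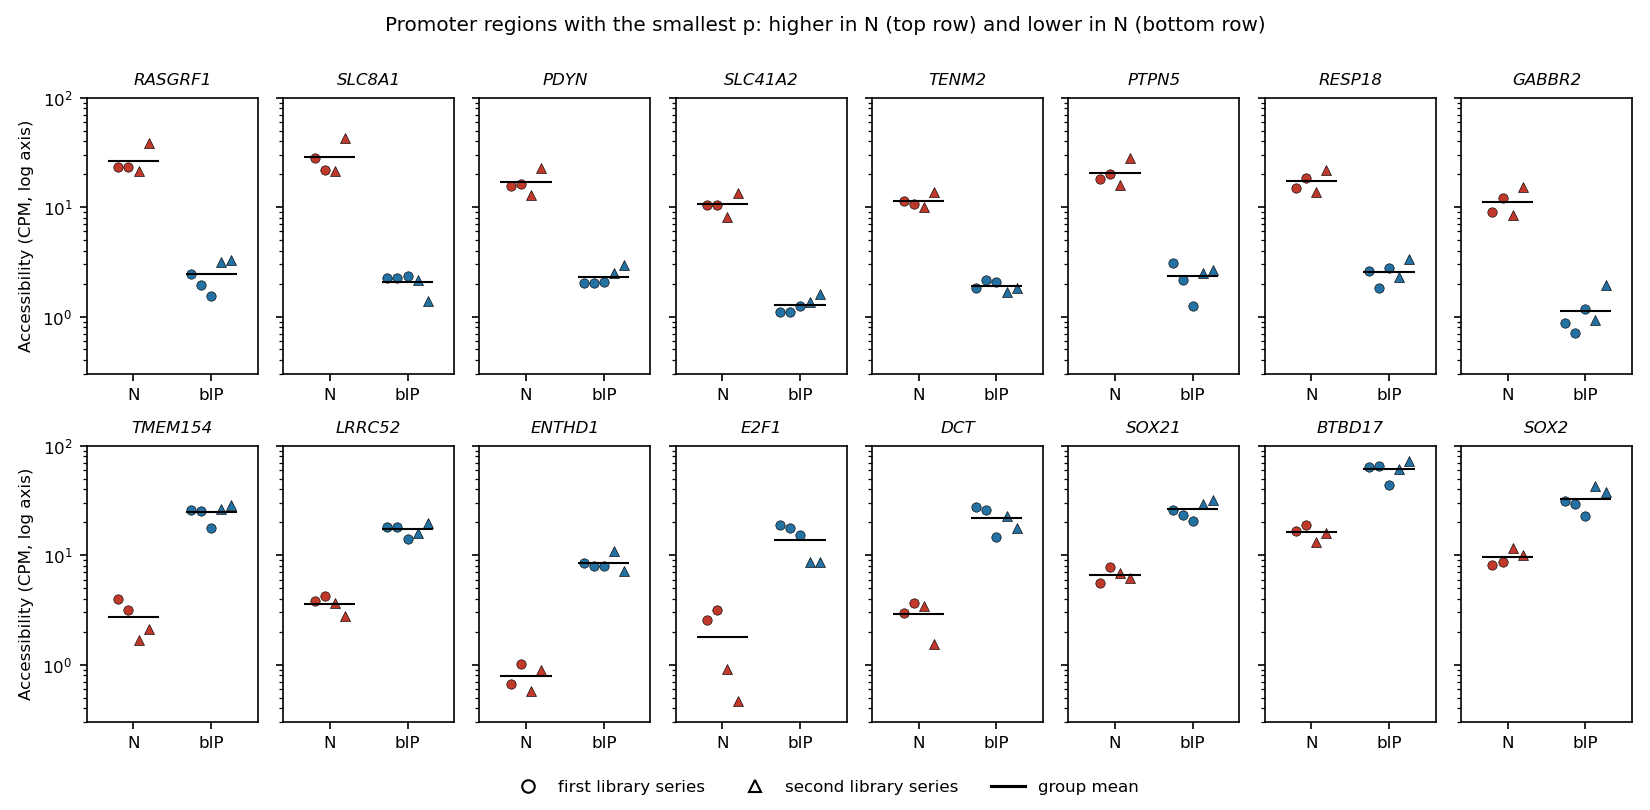
Accessibility in CPM (log axis) of 16 promoter regions, 8 higher and 8 lower in N, with a point for each library, N on the left of bIP in every panel, circles for the first and triangles for the second series. RASGRF1 stands between 21.4 and 38.1 CPM in N and between 1.53 and 3.28 in bIP, and SOX2 between 8.15 and 11.6 CPM in N and between 23.0 and 43.2 in bIP.

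Promoters of many genes for glutamate and GABA receptors rose. Of 27 receptor genes with a tested promoter, 12 rose and 3 fell, where 13.7% of all 19305 genes rose and 22.3% fell by their most accessible promoter region. The list's median log2 change was 0.25, against -0.13 for all genes, and with loess 21 rose and 1 fell. Around the same genes 152 of 315 distal regions were higher in N (48.3%) and 46 were lower (14.6%), against 30.6% and 26.7% of all distal regions.

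The obligatory NMDA receptor subunit gene GRIN1 had 27.2, 32.6, 25.2 and 42.6 CPM in N, against 9.16, 9.58, 9.16, 7.65 and 8.94 CPM in bIP. N4 was highest, and the bIP libraries lay within a narrow band (log2 1.83 ± 0.18, adjusted p = 8.29e-09). GRM5, a metabotropic glutamate receptor coupled to phospholipase C, rose by 1.90 ± 0.33 at a low level, 2.37 ± 0.951 CPM in N and 0.670 ± 0.301 CPM in bIP (SD, n = 4 and 5). The NMDA receptor subunit genes GRIN2A (1.55 ± 0.19) and GRIN2B (0.87 ± 0.17) and the GABA-A receptor subunit gene GABRA4 (1.26 ± 0.20) rose as well, with no overlap between the groups.

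The receptor genes did not all move this way. GRM8, a presynaptic metabotropic receptor, fell to 15.7, 18.1, 13.9 and 13.5 CPM in N, against 27.8, 26.3, 18.9, 30.1 and 29.2 CPM in bIP (log2 -0.79 ± 0.16, adjusted p = 0.000165). GRIA4, an AMPA receptor subunit, fell by 0.55 ± 0.16 with TMM (adjusted p = 0.00439), but with loess its change was -0.20 (adjusted p = 0.087), and in the first series alone -0.21 (adjusted p = 0.369). GRIA1, another AMPA receptor subunit, was not called at its promoter (39.9 ± 7.57 CPM in N and 34.3 ± 6.94 CPM in bIP, log2 0.21 ± 0.16, adjusted p = 0.272). It passed with loess (0.52), in the first series alone (0.48) and without N3 (0.33). Its distal regions divided clearly, since 26 of 45 were higher in N and 4 were lower.

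Among 29 voltage-gated ion channel genes 9 promoters rose and 3 fell, with a median of 0.16 against -0.13 for all genes, and with loess 23 rose and 1 fell. Without N1, N3, bIP1, bIP2, bIP4 or bIP5 the falls numbered 1. SCN1A, a sodium channel of the axon initial segment, had 7.84, 7.41, 5.04 and 9.24 CPM in N, against 1.63, 1.49, 2.36, 1.19 and 1.64 CPM in bIP (log2 2.18 ± 0.22, adjusted p = 1.14e-08). The groups were well apart. Smaller rises were measured at the neighbouring sodium channel gene SCN2A (0.66 ± 0.17), at the calcium channel subunit genes CACNA2D3 (1.38 ± 0.18) and CACNB2 (0.84 ± 0.19) and at the calcium-activated potassium channel gene KCNMA1 (0.93 ± 0.19), where the second series alone gave 0.52 (adjusted p = 0.193). Around all channel genes 123 of 335 distal regions were higher (36.7%) and 84 were lower (25.1%), the second share near that of all distal regions.

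Of 14 synaptic vesicle and release genes 5 rose and 1 fell, without N4 3 rose, and with loess 11 rose and 0 fell. Among all genes 13.7% rose and 22.3% fell with TMM. The list's median was 0.04 against -0.13 for all genes, with 0.32 against 0.12 in the first series and -0.14 against -0.38 in the second. The single fall was not called in 7 of the 9 fits that left out 1 library. UNC13A, a vesicle priming factor, had 18.9, 19.0, 15.8 and 23.8 CPM in N, against 8.02, 7.77, 8.19, 7.47 and 9.32 CPM in bIP (log2 1.24 ± 0.16, adjusted p = 5.08e-07). SYT4, a synaptotagmin of dense-core vesicles, rose by 1.15 ± 0.18. Both stood apart in every library. CPLX1, a clamp of the fusion machinery, rose by 0.77 ± 0.20 over both series, and its log2 change was 1.39 in the first series and 0.11 in the second.

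Of 14 genes for calcium-regulated kinases and Ras signalling 5 rose, RASGRF1 among them, and 1 fell, with 3 rising when N4 was left out and 2 falling when N2 or bIP3 was. With loess 11 of them rose and 1 fell. The median of these genes was 0.04 with TMM, against -0.13 for all genes, of which 13.7% rose and 22.3% fell. CAMK2B, a calmodulin-dependent kinase subunit abundant at synapses, had 18.5, 25.1, 19.5 and 29.7 CPM in N, against 6.28, 5.89, 4.23, 6.32 and 9.66 CPM in bIP (log2 1.82 ± 0.18, adjusted p = 9.45e-09). RASGRF2, the paralog of RASGRF1, rose by 1.30 ± 0.20, and RASGRP1, a Ras activator responsive to diacylglycerol, fell by 0.57 ± 0.17 and was not called in the first series alone (-0.30, adjusted p = 0.205). Of 7 calcium transport and store genes 2 rose and 0 fell in edgeR's test (1 fell at an unadjusted p under 0.05 and in DESeq2), with 1 rising when N2 was left out and 1 falling without N2, N4 or bIP3. With loess 3 rose and 0 fell. Of the 100 distal regions listed with this group 49 were higher in N and 23 were lower, against 30.6% and 26.7% of all distal regions.

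Axon guidance genes leaned the other way at their promoters with TMM, whereas with loess more of them rose than fell. Of 29 genes 2 rose and 10 fell with TMM, with a median of -0.23 against -0.13 for all genes, and with loess 12 rose and 8 fell. Of all genes 13.7% rose and 22.3% fell with TMM. The list's median was -0.02 in the first series and -0.47 in the second, against 0.12 and -0.38 for all genes. Without N3 4 of the 29 genes rose, and without N4 1 did. SLIT3, a secreted repellent for ROBO receptors, rose to 11.7, 12.2, 20.5 and 26.1 CPM in N, against 8.32, 8.93, 7.35, 10.2 and 8.21 CPM in bIP, and the N libraries of the second series were the highest (log2 0.94 ± 0.18, adjusted p = 8.61e-05). Its receptor gene ROBO2 fell by 0.71 ± 0.15, and so did the semaphorin receptor gene NRP1 (0.79 ± 0.15) and the ephrin receptor gene EPHA3 (0.62 ± 0.14). Distal regions of the guidance genes were split, with 123 of 443 higher (27.8%) and 141 lower (31.8%), against 30.6% and 26.7% of all distal regions.

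Synaptic adhesion genes were also split at promoters, where 4 of 30 rose and 6 fell with TMM and 14 rose and 4 fell with loess. The TMM counts lie near the shares of all genes, 13.7% higher and 22.3% lower. Of coding genes alone 7.76% were higher and 18.9% were lower. Leaving out N1, N4, bIP2, bIP3 or bIP4 brought the rises to 2. TENM2 had the largest rise of the list. DSCAM, a homophilic adhesion protein, rose by 0.69 ± 0.20. NCAM1, the neural cell adhesion molecule, fell by 0.61 ± 0.15, and LRRTM3, a synaptic organiser, fell by 0.63 ± 0.16 with TMM and by 0.20 with loess (adjusted p = 0.162). At a distance from the same genes 155 of 393 regions were higher in N and 88 were lower.

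Neuropeptide genes gave 6 rises and 4 falls among 17 (9 and 3 with loess), and without bIP1, bIP2 or bIP4 the falls numbered 2. The 4 falls were near the share of all genes, of which 22.3% fell and 13.7% rose with TMM. Besides PDYN, the promoters of CARTPT (1.43 ± 0.20), SST (somatostatin, 1.03 ± 0.19), NPPC (0.84 ± 0.16) and VGF (0.67 ± 0.17) rose. In the second series alone NPPC changed by 0.64 (adjusted p = 0.104) and VGF by 0.33 (adjusted p = 0.445), and neither was called. NPPA, which encodes atrial natriuretic peptide, fell to 13.6, 13.5, 7.11 and 12.1 CPM in N, against 24.1, 24.0, 20.4, 20.8 and 31.5 CPM in bIP (log2 -1.06 ± 0.21, adjusted p = 0.000104). It was low in both radial glia groups, at 3.19 CPM in bRG and 2.71 CPM in aRG. TAC3, the neurokinin B gene, had the same order of levels and fell by 0.98 ± 0.18 in N.

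Of 13 activity-regulated immediate early genes 2 rose and 0 fell in edgeR's test (1 fell at an unadjusted p under 0.05 and in DESeq2), and with loess 11 rose and 1 fell. Without N2 2 fell, and without bIP3 1 fell. Of all genes 13.7% rose with TMM, a share near that of the rises in this list, and 22.3% fell. EGR4, a zinc finger factor, had 13.9, 20.4, 12.3 and 18.1 CPM in N, against 4.09, 4.92, 5.55, 4.11 and 5.84 CPM in bIP (log2 1.72 ± 0.19, adjusted p = 4.40e-08). NPAS4, a bHLH factor induced by calcium influx in neurons, had 19.6, 28.7, 19.1 and 26.0 CPM in N, against 9.95, 9.26, 8.12, 9.15 and 9.47 CPM in bIP (log2 1.34 ± 0.17, adjusted p = 1.77e-07). Neither gene's groups overlapped.

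The transcription factors by which excitatory cortical neurons are recognised were not more open at their promoters in N than in bIP. Of 22 such genes 0 rose and 15 fell in edgeR's test with TMM, with a median of -0.52 against -0.13 for all genes. With loess 3 rose and 8 fell, with a median of -0.19 against 0.14. At an unadjusted p under 0.05 and in DESeq2 the count of rises was also 0, here and at each list below with 0 rises. BCL11B, the gene in the label of the sorted neurons, had 21.8, 23.2, 14.7 and 21.6 CPM in N, against 24.1, 24.3, 18.7, 23.9 and 27.1 CPM in bIP. The groups overlapped and the change was not called (log2 -0.22 ± 0.16, adjusted p = 0.276, and 0.15 with loess).

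The deep-layer factor TBR1 had 43.9, 42.2, 34.5 and 48.0 CPM in N, against 49.1, 49.9, 42.9, 70.8 and 82.4 CPM in bIP, and it fell by 0.47 ± 0.17 (adjusted p = 0.0177). The bIP libraries of the second series were the highest, and in the first series alone the change was -0.13 (adjusted p = 0.613). The adjusted p was 0.0558 without N4, 0.0553 without bIP5, 0.0884 with loess, 0.0790 with the N and bIP libraries alone and 0.0687 with a filter of at least 10 CPM in 2 libraries. BHLHE22, a bHLH repressor of postmitotic cortical neurons, fell to 4.48, 3.53, 6.58 and 8.12 CPM in N, against 14.2, 13.9, 12.5, 20.1 and 19.7 CPM in bIP (log2 -1.61 ± 0.18, adjusted p = 2.86e-08). ZFPM2 (0.80 ± 0.16), NR4A2 (0.73 ± 0.15) and CUX2 (0.80 ± 0.20) fell as well. At CUX2 the change was -0.17 in the first series and -1.53 in the second.

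NEUROD2 and NEUROD6, bHLH factors that follow the neurogenins, were open at similar levels in both groups. NEUROD2 had 38.6 ± 9.25 CPM in N and 34.0 ± 6.87 CPM in bIP (log2 0.19 ± 0.21, adjusted p = 0.462), against 5.32 CPM in bRG and 3.91 CPM in aRG. NEUROD6 had 28.9 ± 4.98 CPM in N and 25.4 ± 2.38 CPM in bIP (log2 0.16 ± 0.15, adjusted p = 0.391). Both passed the threshold upward with loess (0.54 and 0.52). MYT1L, which represses non-neuronal programmes, had 43.3 ± 9.37 CPM in N and 45.7 ± 8.64 CPM in bIP (log2 -0.09 ± 0.16, adjusted p = 0.678, and 0.27 with an adjusted p of 0.0183 under loess), against 5.90 CPM in bRG and 6.73 CPM in aRG.

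Distal regions around these genes moved in both directions. Of the 10 distal regions listed with MYT1L 7 were higher in N and 1 was lower, with a median log2 change of 1.17. All distal regions had 30.6% higher and 26.7% lower. Within 100 kb of the MYT1L promoter, whatever gene was listed, 8 of 17 regions were higher and 4 were lower, with a median of 0.007. Over all 22 transcription factor genes and the 2 without a promoter region, 71 of 260 distal regions were higher (27.3%) and 90 were lower (34.6%). ST18, a relative of MYT1L, rose by 1.62 ± 0.36 at a weak promoter region, with 1.21, 0.611, 1.73 and 3.38 CPM in N, against 0.227, 0.647, 0.486, 0.619 and 0.628 CPM in bIP. N2 lay below the highest bIP libraries. Of the 17 distal regions listed with ST18 14 were higher in N and 0 were lower. In its list of MYT1, REST and BAF subunit genes 3 of 10 promoters rose and 2 fell, with 1 rising without N4 and 1 falling without bIP5 (6 and 2 with loess), and RCOR2, a REST corepressor, fell by 0.87 ± 0.17.

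Cytoskeletal genes were split, with 4 of 16 microtubule and filament genes higher and 5 lower in N with TMM and 7 higher and 4 lower with loess. The rises numbered 2 without N2, N4 or bIP4, and the falls 3 without N1, N3, bIP1 or bIP4 and 2 without bIP5. NEFL, the light neurofilament chain, had 25.2, 29.9, 17.2 and 28.5 CPM in N, against 17.0, 18.2, 14.3, 9.19 and 13.0 CPM in bIP (log2 0.87 ± 0.17, adjusted p = 0.000102). Only N3 reached into the bIP range. STMN2, a microtubule regulator of growing axons, rose by 0.48 ± 0.16 (adjusted p = 0.0156), and was not called without N4 (0.40, adjusted p = 0.0936) or without bIP4 (0.37, adjusted p = 0.107). TUBB2B (0.56 ± 0.18) and STMN1 (0.54 ± 0.16), which cycling and migrating cells also use, fell, and neither was called in the first series alone, nor TUBB2B with the N and bIP libraries alone (adjusted p = 0.0544). Of 12 RNA-binding protein genes 0 rose and 4 fell with TMM, 2 without bIP5, and 4 rose and 4 fell with loess. Among them ELAVL4 fell by 0.68 ± 0.16.

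Genes of intermediate progenitors lost accessibility in N. Of 12 basal intermediate progenitor genes 0 rose and 9 fell, with a median of -0.76 against -0.13 for all genes, and with loess 1 rose and 7 fell. No single library changed this count by more than 1.5 times. Of the 97 distal regions listed with them 62 were lower and 12 were higher.

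EOMES, the factor that defines this cell type, had 31.9, 33.6, 38.9 and 41.5 CPM at its promoter (chr3:27772174-27776341) in N, against 77.3, 72.1, 60.1, 95.7 and 110 CPM in bIP. No N library reached the lowest bIP library, and the second series was higher than the first in both groups (log2 -1.22 ± 0.15, adjusted p = 2.76e-07). DLL3, a Notch ligand that acts within the signalling cell, had 18.2, 19.1, 10.2 and 19.1 CPM in N, against 49.5, 49.6, 37.7, 34.8 and 47.8 CPM in bIP (log2 -1.39 ± 0.18). The proneural factor NEUROG1 had 12.3, 14.8, 15.9 and 20.4 CPM in N, against 37.1, 36.4, 24.6, 47.7 and 49.7 CPM in bIP (log2 -1.35 ± 0.16, adjusted p = 1.04e-07). NEUROD4 (-1.17 ± 0.17), the phosphatase inhibitor gene PPP1R17 (-1.15 ± 0.18) and HES6 (-0.92 ± 0.18), an antagonist of HES1, fell without overlap between the groups.

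Promoters of radial glia genes were lower in N than in bIP. Of 16 genes shared by both kinds of radial glia 0 rose and 11 fell (loess, 1 and 10), with a median of -0.69 against -0.13 for all genes. Of 6 apical radial glia genes 5 fell and of 13 basal ones 6 fell, with 0 rising in either list (with loess, 0 rose and 4 fell, and 1 rose and 5 fell). Distal regions of the shared radial glia genes were lower in 63 of 100 cases and higher in 8.

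SOX2, the SOXB1 factor of neural stem cells, had 8.15, 8.63, 11.6 and 9.99 CPM in N, against 31.3, 29.6, 23.0, 43.2 and 37.5 CPM in bIP. The N libraries were tightly grouped well under the lowest bIP library (log2 -1.80 ± 0.16, adjusted p = 1.43e-09), and bRG and aRG averaged 49.0 and 59.3 CPM. DMRTA2, a regulator of cortical patterning, fell by 1.59 ± 0.16, and SOX1, another SOXB1 factor, by 1.02 ± 0.16. The Hedgehog effector GLI3 fell by 1.02 ± 0.16, and FABP7, the fatty acid binding protein of radial glia, by 0.97 ± 0.16. PAX6 was weakly accessible at its most open promoter region, with 3.66, 4.82, 5.04 and 4.36 CPM in N, against 8.63, 6.67, 4.72, 11.3 and 8.60 CPM in bIP (log2 -0.87 ± 0.19, adjusted p = 0.00046), and bIP3 lay within the N range. Among the apical genes CRB2, of the apical Crumbs complex, fell by 1.04 ± 0.16. Among the basal ones the growth factor gene PDGFD fell by 1.51 ± 0.17 and the bone morphogenetic protein gene BMP7 by 1.04 ± 0.15. The matrix gene TNC, also of the basal list, fell by 0.91 ± 0.16.

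The 15 coding genes with the smallest p at a promoter region at least 2-fold lower in N were mostly outside these lists. ENTHD1 (chr22:22394852-22395746) had 0.663, 1.02, 0.576 and 0.892 CPM in N, against 8.51, 8.03, 7.91, 11 and 7.15 CPM in bIP, the largest fall of the 15 (log2 -3.49 ± 0.28, adjusted p = 2.40e-10). A region 733 bp from TMEM154 had 3.98, 3.19, 1.68 and 2.11 CPM in N, against 25.8, 25.3, 17.8, 26.7 and 28.6 CPM in bIP (log2 -3.18 ± 0.24). MPP7, a scaffold of cell junctions, fell by 2.88 ± 0.26. These and a region near the cofilin phosphatase gene SSH3 (-2.55 ± 0.25) were open chiefly in bIP, since the radial glia means were 6.32 CPM or less at each of the 4.

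Other losses were at promoters that radial glia held open as well. DCT, a melanin enzyme also found in neural progenitors, had 2.96, 3.67, 3.41 and 1.55 CPM in N, against 27.9, 25.9, 14.6, 22.9 and 17.8 CPM in bIP (log2 -2.89 ± 0.24), with 24.1 CPM in bRG and 42.9 CPM in aRG. SOX21, a SOXB2 factor that counters SOX2, fell by 2.00 ± 0.17, and RAB34, a GTPase needed for primary cilia, by 1.62 ± 0.16. BTBD17 (-1.93 ± 0.17), LRRC52, an auxiliary subunit of potassium channels (-2.26 ± 0.18), the ribonuclease gene ZC3H12C (-2.05 ± 0.18), the cholecystokinin receptor gene CCKAR (-1.85 ± 0.18) and FYB2 (-2.16 ± 0.21) fell with all N libraries under all bIP libraries. Here too the choice by p from the same libraries favours a separation. A region 764 bp from E2F1, a factor that drives S phase, had 2.57, 3.19, 0.913 and 0.469 CPM in N, against 18.7, 17.6, 15.4, 8.66 and 8.65 CPM in bIP (log2 -2.96 ± 0.24), while the most accessible E2F1 promoter region had a change of -0.29 ± 0.19 (adjusted p = 0.188). The centriole protein gene MDM1 was alike, at -2.01 ± 0.18 for a region 982 bp away and -0.10 ± 0.17 (adjusted p = 0.643) at its most accessible one.

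Some promoters of signalling pathways active in progenitors were also lower in N. Of 11 Notch pathway genes 0 rose and 6 fell, and of 16 genes of Hedgehog, FGF, Hippo and WNT signalling 0 rose and 9 fell with TMM (with loess, 1 rose and 5 fell, and 2 rose and 6 fell). Among all genes 13.7% rose and 22.3% fell with TMM. The list medians were -0.54 and -0.48, against -0.13 for all genes. In the first series they were -0.17 and -0.17, against 0.12, and in the second -0.90 and -0.58, against -0.38. HES1, the main Notch effector, had 13.5, 16.4, 12.6 and 14.8 CPM in N, against 27.4, 23.7, 21.4, 36.5 and 39.5 CPM in bIP (log2 -1.05 ± 0.17, adjusted p = 1.18e-05). The groups did not overlap, nor at HEY2, a related repressor (-1.22 ± 0.18), or at TCF7L1 and TCF7L2, nuclear mediators of WNT signals (-1.18 ± 0.16 and -0.80 ± 0.17). FGFR2, a receptor for fibroblast growth factors, fell by 0.57 ± 0.15.

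Of 26 cell cycle genes 0 rose and 6 fell with TMM, and 3 fell without N1 or bIP4, while with loess 9 rose and 2 fell. Of all genes 13.7% rose and 22.3% fell with TMM, so the falls of this list were near the share of all genes. CCND1, the cyclin that moves cells into S phase, had 5.26, 5.84, 4.66 and 4.46 CPM in N, against 12.1, 11.2, 8.81, 11.4 and 12.8 CPM in bIP (log2 -1.16 ± 0.17, adjusted p = 1.88e-06), and CCNE2 fell by 0.79 ± 0.16. MKI67, whose protein marks cycling cells, had 10.9 ± 1.95 CPM in N and 13.2 ± 1.73 CPM in bIP and was not called (log2 -0.28 ± 0.16, adjusted p = 0.148, and 0.11 with loess).

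Markers of cells outside the excitatory lineage were examined beside these groups. Of 16 GABAergic lineage genes 3 rose and 10 fell (5 and 8 with loess), with summed promoter levels of 141 to 184 CPM in N and 188 to 281 CPM in bIP. The transcription factor genes LHX8 (-1.71 ± 0.18) and DLX1 (-1.14 ± 0.18) fell, and SST and SLC32A1, the vesicular GABA transporter (0.77 ± 0.19), rose. Of 9 oligodendrocyte lineage and astrocyte genes 0 rose and 5 fell (0 and 6 with loess), with sums of 42.7 to 53.6 CPM in N and 65.8 to 97.0 CPM in bIP. GFAP had 7.45, 11.5, 6.34 and 4.22 CPM in N, against 22.3, 20.7, 13.6, 30.0 and 26.3 CPM in bIP (log2 -1.63 ± 0.23), and SOX10 fell by 1.44 ± 0.24. What part such cells have in the results was not tested.

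Of 11 Cajal-Retzius and subcortical neuron genes 1 rose (0 without N2 and 2 without N3) and 4 fell, LHX9 (-1.07 ± 0.16) and EBF3 (-0.98 ± 0.19) among them, with sums of 96.6 to 134 CPM in N and 126 to 224 CPM in bIP. The lists for choroid plexus and cortical hem (2 of 8 rose and 3 fell), mesenchyme (1 of 8 rose and 3 fell) and endothelium and microglia (2 of 4 rose and 1 fell) were split. MSX2 (-1.01 ± 0.16), RSPO2 (0.85 ± 0.16), PDGFRB (-1.19 ± 0.19), LUM (1.03 ± 0.28) and CLDN5 (0.83 ± 0.21) were among their larger changes. Their sums overlapped, at 85.6 to 117, 49.3 to 61.8 and 13.1 to 31.0 CPM in N and 86.8 to 137, 56.1 to 92.0 and 12.8 to 15.4 CPM in bIP. The choroid and hem rises numbered 1 without N1, N2, N4 or any of bIP1 to bIP4, the endothelial and microglial rises 1 without N1, N2, bIP2, bIP3 or bIP5, and the endothelial and microglial fall was lost without N1, N4, bIP3 or bIP5. Of 2 pluripotency genes with a tested promoter 1 fell (0 without N1 or N4), with sums of 1.64 to 3.33 CPM in N and 2.70 to 4.14 CPM in bIP. Of 7 housekeeping genes 0 rose and 1 fell (3 without N2 or bIP3), with a median of -0.24.

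**Figure D3:**
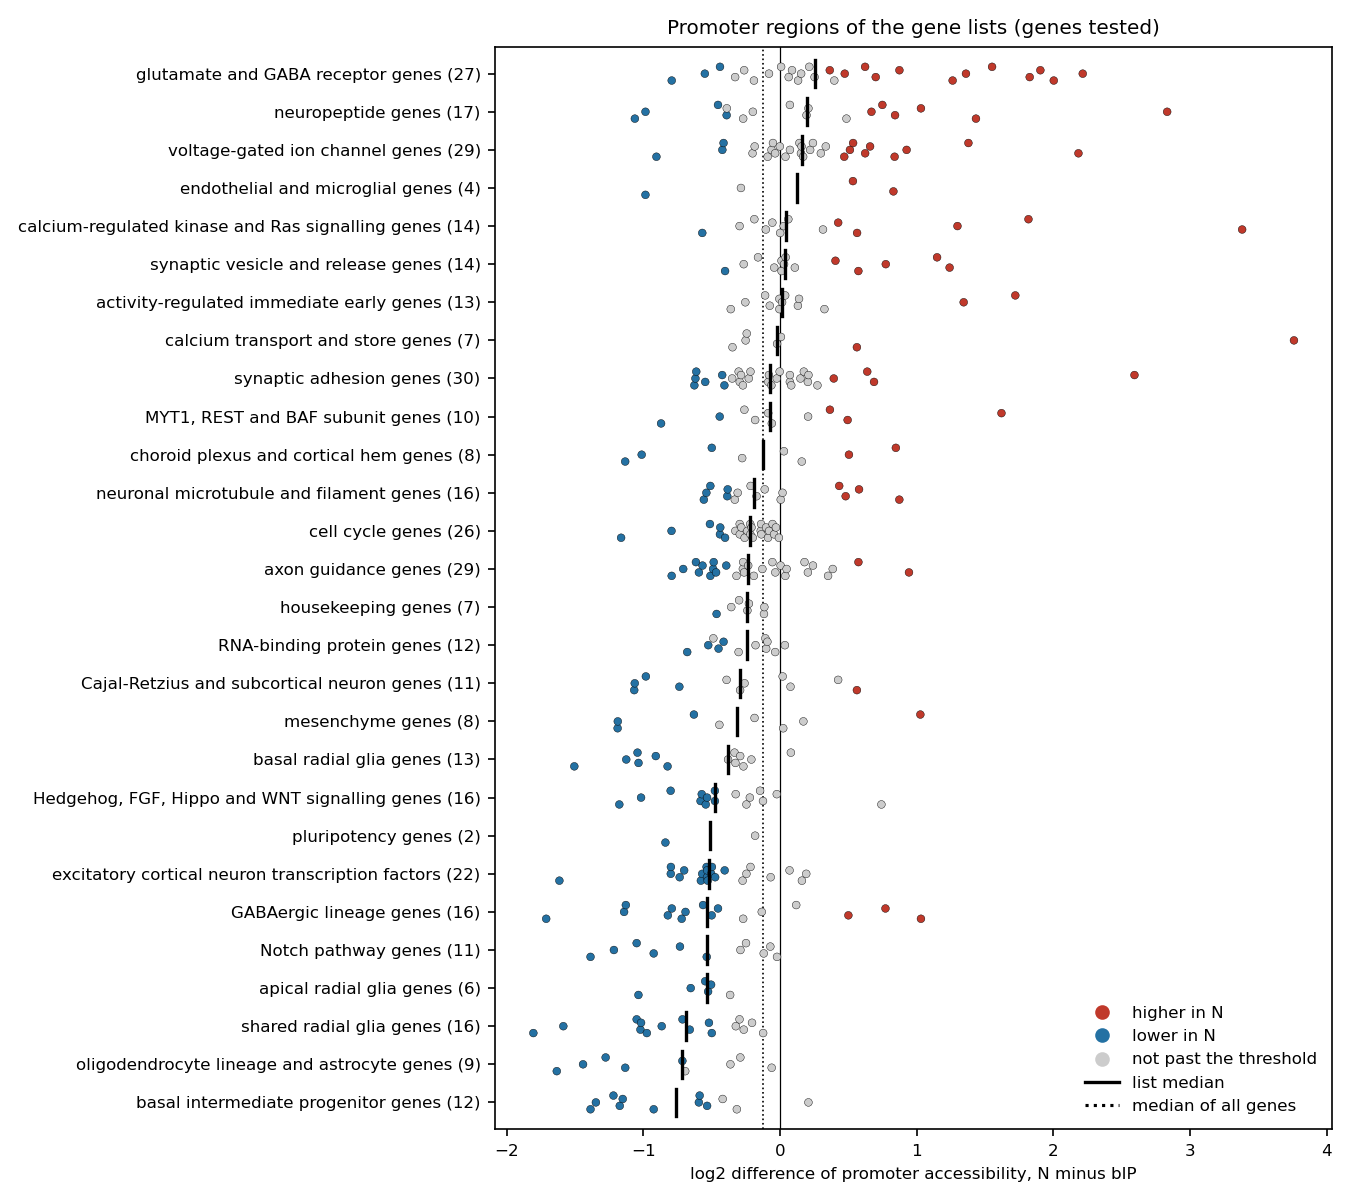
Log2 change of N over bIP at the most accessible promoter region of each gene in 28 gene lists, a point per gene, with called genes coloured and the median of each list marked. Receptor genes have a median of 0.25 and intermediate progenitor genes one of -0.76, and the dotted line is the median of all genes, -0.13.

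The distal regions with the smallest p in each direction often lay nearest to a gene without a protein product. A region listed 2840 bp from the pseudogene MRPL30P1 (chr6:57154733-57155860) had 13, 8.90, 11 and 21.2 CPM in N, against 0.530, 0.583, 0.486, 0.840 and 0.435 CPM in bIP (log2 4.49 ± 0.25, adjusted p = 1.07e-11). All bIP libraries were under 1 CPM and all N libraries over 8. A region 23062 bp from AC020551.1 changed by 4.56 ± 0.26 and one 14151 bp from LINC00411 by 4.27 ± 0.25. In the other direction a region 3507 bp from PLSCR4 (chr3:142750903-142751458) had 1.17, 1.29, 1.63 and 1.03 CPM in N, against 17.6, 18.6, 13.0, 24.8 and 24.1 CPM in bIP (log2 -3.96 ± 0.21, adjusted p = 9.82e-12). A region 88555 bp from NMD3 had 3.06 ± 0.750 CPM in N and 33.6 ± 5.21 CPM in bIP, with 9.04 CPM in bRG and 10.4 CPM in aRG. A region 18400 bp from PCDH17, a protocadherin, had 2.90 ± 0.984 CPM in N and 32.2 ± 5.80 CPM in bIP, with 27.5 and 23.0 CPM in bRG and aRG.

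Changed regions lay next to others changed the same way. Of 64624 pairs of neighbouring regions that were both called, 46041 (71.2%) had the same direction, where 52.2% of all called regions were higher. There were 1424 runs of at least 5 higher regions and 1373 runs of at least 5 lower ones. How many such pairs and runs would arise if neighbours were unrelated was not tested. The longest higher run held 27 regions at chr6:651774-1077304, where LINC01622 and other noncoding genes are listed. A run of 17 higher regions with a median of 2.21 crossed GABBR2 (chr9:69610349-69775913), and one of 16 lay at LINGO2 (chr9:10336226-10604108), whose product is a leucine-rich repeat protein of neuronal membranes. Lower runs held 17 regions at SOX2 (chr3:178112581-178156790, median -1.80), 19 at OLIG3 (chr6:135869756-136046286), 17 near OLIG2 (chr21:18929567-19103456) and 16 across MSI1 (chr12:116192438-116277875), a gene for an RNA-binding protein of neural stem cells. A run of 19 lower regions with a median of -2.31 was listed with CMC1 and LINC01967 (chr3:28104276-28240484).

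Every tested region within 100 kb of a promoter was also counted at chosen loci. These counts include regions already counted above, so they are a description and no separate support. Of all regions tested 28.8% were higher and 26.4% were lower. Near GABBR2 20 of 23 regions were higher and 0 were lower, and near CACNB2 17 of 20 were higher and 1 was lower. GRIN2A had 10 of 13 higher and 1 lower, and PDYN 15 of 25 higher and 2 lower. Near SOX2 0 of 39 were higher and 29 were lower, near HES1 4 of 35 were higher and 25 lower, near PAX6 3 of 29 were higher and 22 lower, and near INSM1, a factor of delaminating intermediate progenitors, 4 of 38 were higher and 24 lower. Other loci held both kinds. EOMES had 5 higher and 9 lower of 19, TENM2 7 and 5 of 23, and BCL11B 7 and 12 of 35. RASGRF1 had 6 higher and 4 lower of 13, and MYT1L 8 and 4 of 17.

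By closest gene, AUTS2 had the most distal changes in both directions, with 41 of 126 regions higher (32.5%) and 33 lower (26.2%). These shares were near those of all distal regions, 30.6% and 26.7%. After AUTS2 the higher regions were most numerous at GRIA1, at CTNND2, a catenin of dendrites (25 of 65), at SPOCK1 (23 of 46) and at PHACTR1 (22 of 40), a regulator of actin and phosphatase activity. The lower ones were most numerous at DOK5 and SIPA1L2 (26 each, of 55 and 48), at the bone morphogenetic protein receptor gene BMPR1B (24 of 54) and at LRIG1, a brake on growth factor receptors, where 23 of 30 were lower and 1 was higher. Large genes hold more regions, so these counts do not rank the genes.

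**Figure D4:**
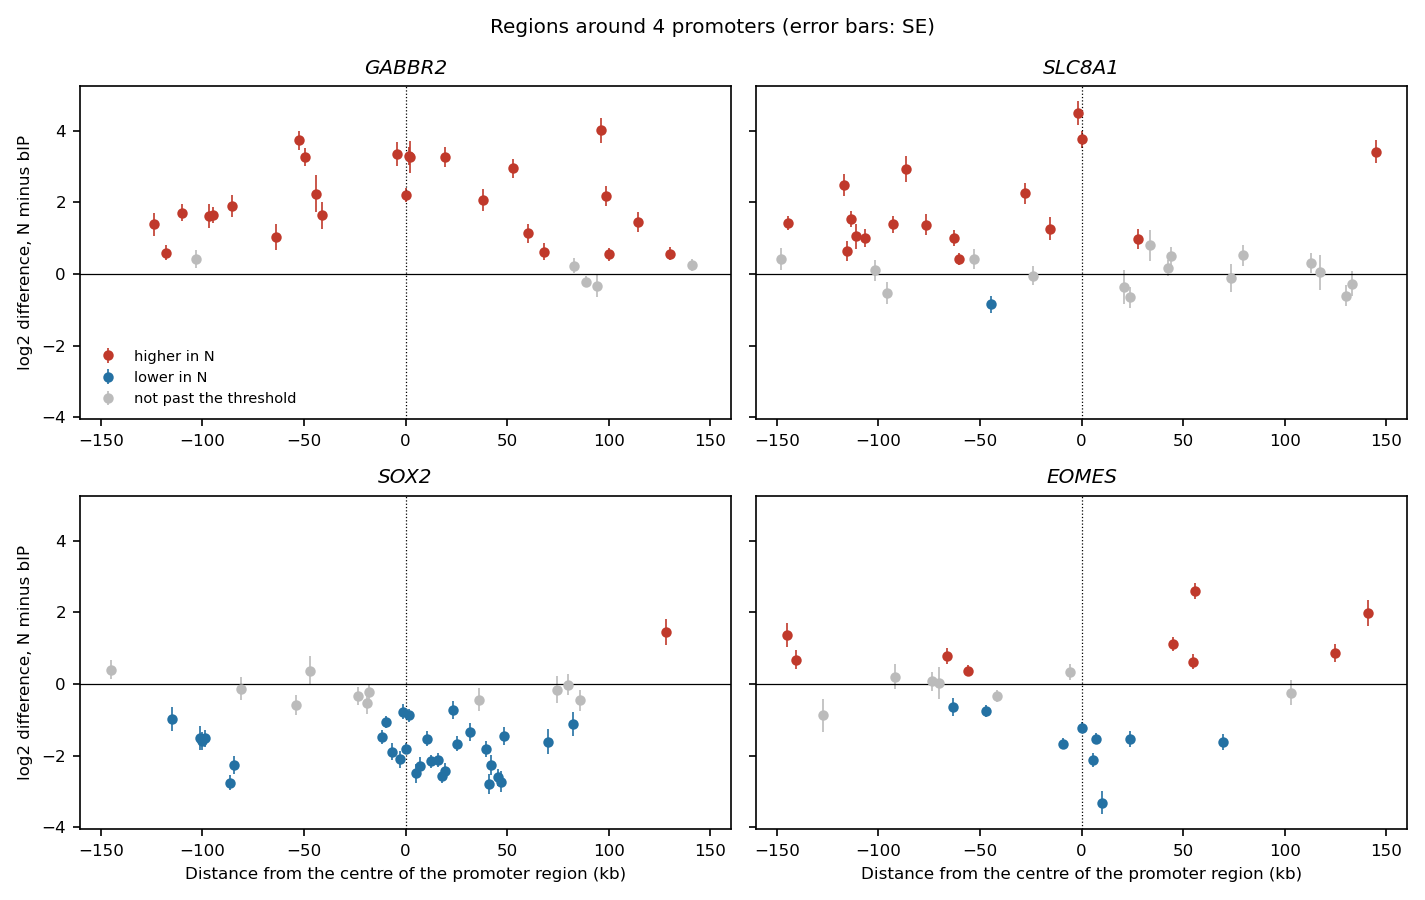
Log2 change of N over bIP with its SE for each tested region within 150 kb of the promoter, against distance from the promoter in kb, at GABBR2, SLC8A1, SOX2 and EOMES, with called regions coloured. Within 100 kb, 20 of 23 regions near GABBR2 are higher in N and 29 of 39 near SOX2 are lower, while EOMES has 5 higher and 9 lower of 19.

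Set beside radial glia, the regions that rose in N and those that fell had different levels, described here over regions changed at least 2-fold and without a test. The 41451 higher distal regions had median levels on the log2 CPM scale of 1.63 in N, -0.25 in bIP, -0.43 in bRG and -0.50 in aRG, and N was the highest group at 98.0% of them. The 1802 higher promoters had 1.87 in N, 0.06 in bIP and -0.23 in both radial glia groups. The 29002 lower distal regions had 0.42 in N, 2.01 in bIP, 1.79 in bRG and 1.68 in aRG, and bIP was the highest group at 52.7%. In 35.2% of them bIP was more than 1 log2 unit above aRG, and in 20.2% it was more than 1 unit below. Since the N change and these bIP levels share the bIP libraries, the shares are a description. The bRG levels come from the second series alone, while those of the other groups pool both series. Group and series cannot be fully told apart there.

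**Figure D5:**
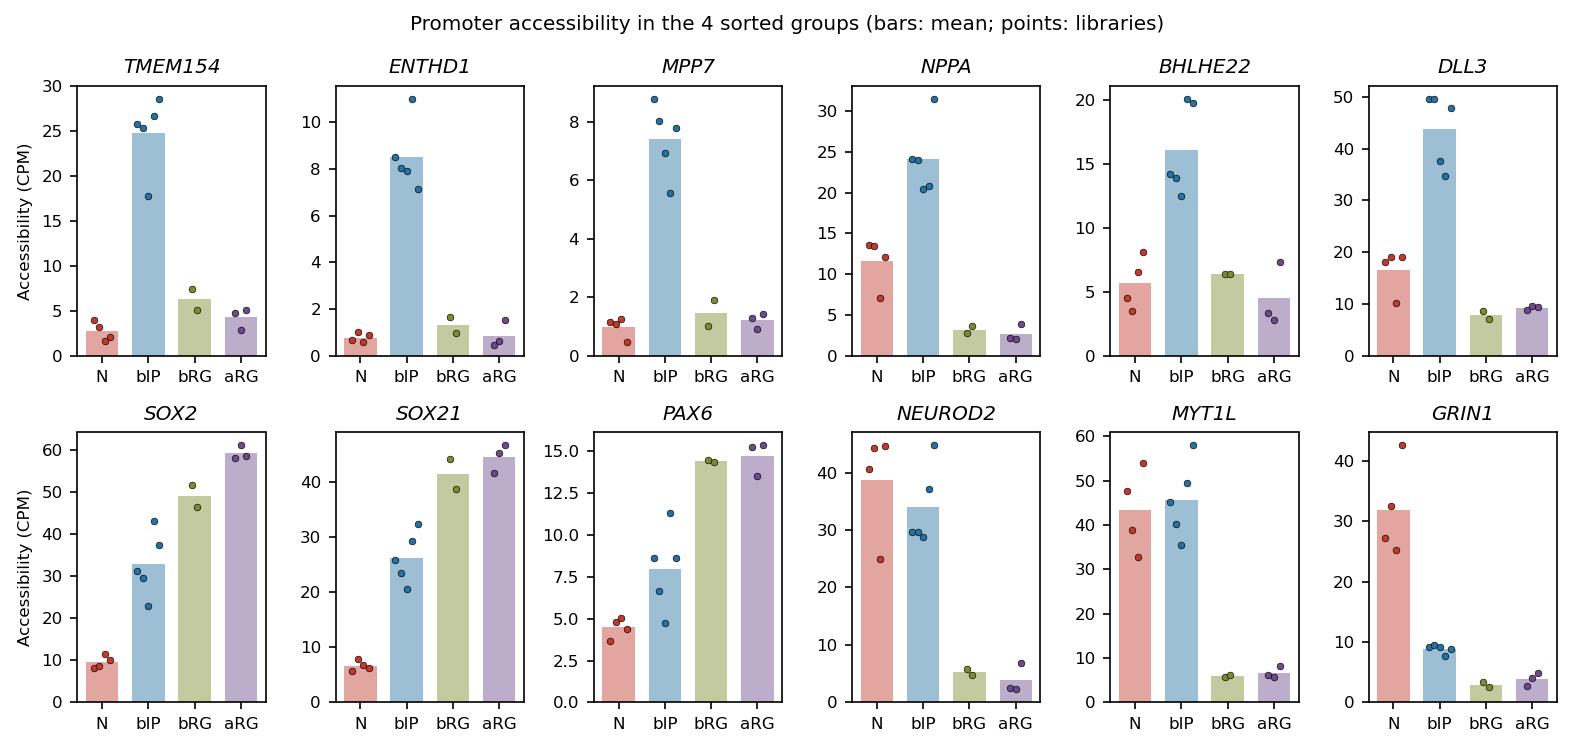
Promoter accessibility in CPM of 12 genes in the N, bIP, bRG and aRG libraries, on an axis from 0 in each panel, with bars for the group means and a point per library. NPPA stands at 11.6 CPM in N, 24.1 in bIP, 3.19 in bRG and 2.71 in aRG, while NEUROD2 is at 38.6 and 34.0 CPM in N and bIP and at 5.32 and 3.91 CPM in bRG and aRG.

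The deposited consensus peaks, 1 set per cell type, followed the counts from which they were not independent. Of the distal regions at least 2-fold higher in N, 48.1% overlapped an N peak and 9.36% a bIP peak. Of the lower ones 16.2% overlapped an N peak and 54.6% a bIP peak. At the higher promoters 54.5% held an N peak and 14.8% a bIP peak, and at the lower promoters 25.9% held an N peak and 63.3% a bIP peak.

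Each series was also fitted alone, which sets N1 and N2 against bIP1 to bIP3, and N3 and N4 against bIP4 and bIP5. Of 1680 promoters called at least 2-fold higher in the first series, 96.1% of those tested had the same sign in the second and 76.9% were called the same way. For 29156 lower distal regions of the first series these shares were 92.5% and 62.8%, and for 43533 higher distal regions of the second series they were 95.8% and 78.7% in the first. The change itself differed between the series at 11498 of 194120 regions (5.92%), of which 4707 had a more positive and 6791 a more negative change in the second. At 7199 of the 11498 (62.6%) the direction was the same in both. Of 568 promoters that differed, 446 were more negative in the second series, where the median promoter change was also lower. Besides KCNMA1, NPPC and VGF, the called promoters of CPLX1, EPHA3, NCAM1, LRRTM3, DSCAM, NR4A2, STMN2, STMN1, ELAVL4, FGFR2, SLC32A1, RSPO2 and CLDN5 were not called in the second series alone, with adjusted p between 0.0622 (NCAM1) and 0.794 (CPLX1). NCAM1 and LUM were not called in the first series alone (adjusted p = 0.0923 and 0.410).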

How the data were processed

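Nuclei of sorted, fixed cells were transposed for 2 hours and libraries were size selected, per the labels' protocols. The submitters' processing notes name bcl2fastq 2.20.0, MACS2 and the builds hg38 and panTro6. An aligner and a counting tool were not given in the sources used here. As files, the authors deposited 1 table of raw counts per region with gorGor6 positions and closest genes per the file headers, and consensus peaks, 1 set per cell type, with a fold enrichment, a −log10 q and a score per peak, the authors' own values. The peak sets name no build and were taken as gorGor6, since 16758 regions share an exact start with an N peak. What the listed gene distance is measured to is not stated.

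From 218080 regions, 13823 without a gorilla position (0 counts) and 8 repeats were left out. Counts of all 14 libraries were fitted with edgeR 4.0.16 (TMM, filterByExpr on the groups, quasi-likelihood test, group means plus library series), with Benjamini-Hochberg adjustment over 200931 regions, in R 4.3.3. Its steps were tested on simulated data. A gene's promoter is its region with the highest mean count within 1000 bp. Floors cover counting error only.

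The members and lists were chosen with earlier results of these data known. The text names members of 28 lists (519 genes), the 15 coding genes' promoter regions and the 6 distal regions with the smallest p in each direction (called, at least 2-fold, same sign in both series), and genes among the 8 with the most changed distal regions each way. Alternatives were DESeq2 1.42.0 (test, size factors), limma 3.58.1 loess offsets, filters, the 2 groups alone, each series alone, no series term, a replicate block, bIP1 and bIP2 summed, and leaving out each library; bedtools 2.31.1 compared peaks. Sequences of promoters were not used here, and some named members are not reported here.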

Additional observations from a re-analysis of the deposited data

Results flagged for a closer look

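In the 129 named regions, 258 groups of libraries were searched for a library far from the others, by Dixon's ratio of its gap to the range; chance marks about 1 group in 20, and 14 were marked. N4 was the highest neuron library at RASGRF1 (0.875, 38.1 CPM against 21.4 to 23.5), INSYN2A (0.956, 33.2 against 20.1 to 20.7), LHX9 (0.911, 24.6 against 16.8 to 17.5) and the distal regions listed with AC078785.2 (0.866, 31.3 against 18.2 to 19.9) and RNU1-133P (0.856, 36.5 against 16.9 to 19.7). N1 was highest at CCKAR (0.856, 4.25 against 3.65 to 3.74 CPM) and at the MDM1 region (0.9, 6.51 against 4.35 to 4.56), and N3 was lowest at DLL3 (0.9, 10.2 against 18.2 to 19.1). bIP5 was lowest at SLC8A1 (0.798, 1.40 against 2.17 to 2.36 CPM) and highest at CUX2 (0.73, 40.7 against 26.2 to 30.1), STMN2 (0.897, 57.5 against 32.0 to 34.6) and PPP1R17 (0.823, 13.9 against 9.28 to 10.1). bIP3 was lowest at MKI67 (0.722, 10.2 against 13.4 to 14.6 CPM) and at the distal region listed with LINC01817 (0.74, 33.3 against 44.2 to 48.1).

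At 7 named regions the change of N over bIP differed between the library series in edgeR's interaction test, given as the second minus the first series on the log2 scale. The difference was -1.27 ± 0.34 at CPLX1 (1.39 in the first and 0.11 in the second, adjusted p = 0.0181), -1.35 ± 0.34 at CUX2 (-0.17 and -1.53, adjusted p = 0.0133) and -1.44 ± 0.37 at GFAP (-0.96 and -2.40, adjusted p = 0.015). At PDGFRB it was -1.29 ± 0.33 (-0.59 and -1.88, adjusted p = 0.0141), and at LUM 1.52 ± 0.47 (0.31 and 1.82, adjusted p = 0.0473). The region near TMEM154 had -1.24 ± 0.38 (-2.61 and -3.85, adjusted p = 0.0413) and that near SSH3 -1.41 ± 0.45 (-1.85 and -3.27, adjusted p = 0.0488), both with N lower in each series. The source of these differences was not tested.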

How the results depend on the processing

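Over 20 alternatives, 2509 of 2567 values for the 129 named regions kept their direction and their side of the threshold, 37 lost the call, 9 gained it and 12 changed sign, the last at 5 promoters not called in the full model. These were BCL11B (0.073 with at least 10 CPM in 2 libraries, 0.014 in the first series alone, 0.15 with loess), GRIA1 (-0.085 in the second series alone), NEUROD2 (-0.23 in the second series alone), MYT1L (0.20 with 10 CPM, 0.11 in the first series, 0.27 with loess, 0.013 with the replicate block, and -0.207 to 0.030 when 1 library was left out) and MKI67 (0.0023 with 10 CPM, 0.11 with loess). Requiring 10 CPM in 2 libraries left 44039 regions, with 15244 higher and 14755 lower, of which 4881 and 2073 were promoters and 10133 and 12508 distal. Loess gave 8272 promoters higher, the second series alone 1952, and the first series alone 2986 promoters lower. The interaction fitted to all 14 libraries gave 8057 regions more positive in the second series. The cause was not tested. Leaving out 1 library gave 51405 to 58648 regions higher and 47232 to 58887 lower, 2501 to 3208 promoters higher and 3864 to 5984 lower, and 48322 to 55266 distal regions higher and 42658 to 53481 lower. Deviations of same-numbered libraries correlated at 0.235, 0.121, 0.0762 and 0.192. N1 correlated best with bIP1 and N4 with bIP4, while N2 did so with bIP1 (0.140) and N3 with bIP4 (0.159). N3 and bIP3 are of different series, and whether replicate numbers pair the samples could not be decided from these values. A replicate block gave 54635 regions higher and 51948 lower, 2984 and 4444 at promoters and 51038 and 46679 distal, and TBR1 then had -0.32 (adjusted p = 0.0968). Summing bIP1 and bIP2, the most alike pair, gave 55820 higher and 50407 lower. Depth limits the weakest regions, since 3 counts are worth 0.114 to 0.208 TMM-scaled CPM in the N and bIP libraries.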

Other observations

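Regions whose position was mapped in gorilla but in neither human nor chimpanzee numbered 1774 among those tested. Of these 388 (21.9%) were higher in N than in bIP and 545 (30.7%) were lower, with a median log2 change of -0.18. Of the 195719 regions with positions in both other species 28.9% were higher and 26.4% were lower, with a median of -0.02. The difference between these sets was not tested. The 2812 tested regions without a human position also have no closest gene listed.

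Protein-coding genes were also counted on their own. Of 10099 coding genes by their most accessible promoter region, 784 (7.76%) were higher in N and 1910 (18.9%) were lower with TMM, against 4839 and 1259 with loess. At least 2-fold changes numbered 337 higher and 365 lower with TMM. Of the called genes 2594 of 2644 higher and 4258 of 4305 lower ones, coding or not, had the same sign in both library series. These genes were called from both series together, which favours a shared sign, so the counts are no replication.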
